A study of Mus musculus with 15 samples.

Results

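The loss of Helios alone was examined in splenic CD4+CD25+ T cells, a sorted fraction rich in regulatory T (Treg) cells. The arrays titled Ikzf2-/- replicates 1, 2 and 3 were compared with the arrays titled WT replicates 4, 5 and 6, so 6 of the 15 arrays of the series were used, with 3 per group. The other 9 arrays hold WT replicates 1 to 3, Ikzf4-/- cells, which lack Eos, and cells of mice lacking both factors (dKO), 3 arrays each. The mice are described by genotype alone: the labels give no treatment, strain, age, sex or construction of the alleles. Which cells of the mouse lack Helios is therefore not given either. All 21789 probe sets with 1 gene symbol were used, which gave 19938 genes. Of these, 10478 had a mean log2 signal above 4.92, the median over all probe sets, in at least 1 of the groups and were tested.

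Helios, encoded by Ikzf2, is a zinc finger DNA-binding protein of the Ikaros family, which bind sites with the core letters GGGAA and recruit corepressor complexes such as NuRD. Most thymus-derived Treg cells carry Helios, where it is known for keeping the Foxp3-dependent programme stable under inflammation. Treg cells restrain other lymphocytes through inhibitory receptors such as CTLA-4, through consumption of interleukin-2, and through cytokines such as interleukin-10, and activated Treg cells acquire chemokine receptors that take them into tissues.

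The 3 Ikzf2-/- arrays did not resemble each other as closely as the WT arrays did. The median gene had an SD of 0.196 log2 units among them, against 0.110 among WT 4 to 6 and 0.0918 to 0.102 in the other groups. Ikzf2-/- 2 and Ikzf2-/- 3 stood apart in different ways, with 30 genes of Ikzf2-/- 2 more than 1 log2 unit above and 61 below all 5 other arrays, and 65 genes of Ikzf2-/- 3 above and 4 below. The genes raised in Ikzf2-/- 3 included 12 of the B cell markers, 7 of the neutrophil markers and 7 genes of mitosis. Of the 14, 8 and 31 members of these lists tested, 6, 3 and 9 were above the filter only in their Ikzf2-/- mean, which Ikzf2-/- 3 enters. Among the genes raised in Ikzf2-/- 2 was the CD8 chain Cd8b1, at 7.31 against 6.06 to 6.12. Cd8a, the other CD8 chain, was not raised there, at 4.68 against 4.34 to 4.74 in WT, and lay below the filter. In limma's array weights, which rise with how well an array follows its group, Ikzf2-/- 1 had 3.35, Ikzf2-/- 2 had 0.185, Ikzf2-/- 3 had 0.489, and WT 4, 5 and 6 had 2.09, 1.96 and 0.805. All 6 arrays had high Xist (9.64 to 10.32) and low Eif2s3y (2.87 to 3.01), the transcripts that mark female and male cells. Array values below are log2 signals, listed in the order of the replicate numbers, and a difference is Ikzf2-/- minus WT with its standard error (SE). Unless a weighted difference is named, both come from the fit with equal weights, also where an adjusted p of the weighted fit is given.

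**Figure D1:**
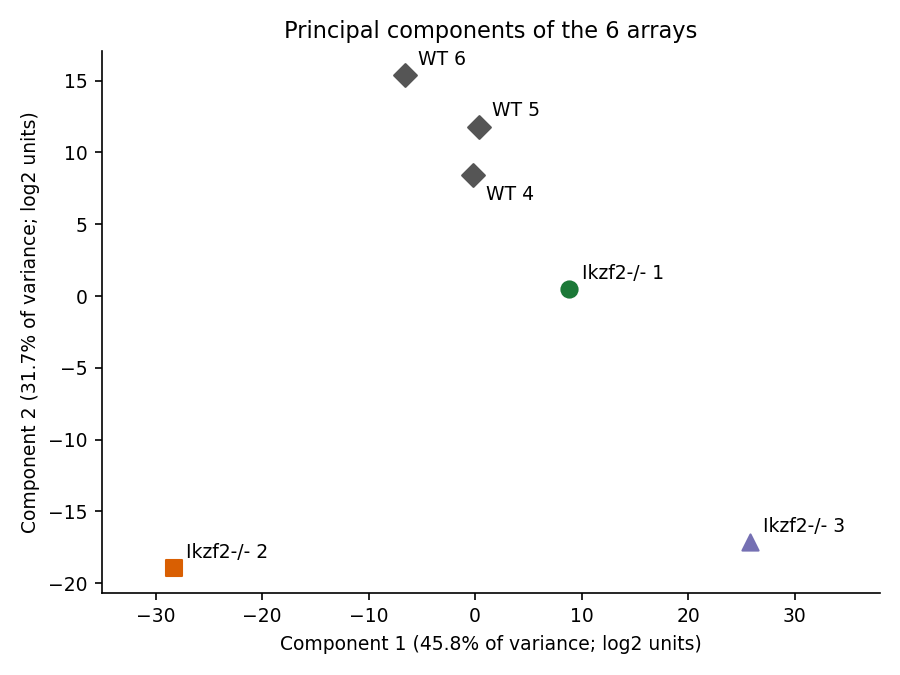
First and second principal components of the 10478 genes tested, with 1 point per array; the axes are in log2 units and carry 45.8% and 31.7% of the variance. WT 4, 5 and 6 lie together, Ikzf2-/- 1 lies nearest to them, and Ikzf2-/- 2 (-28.3 on the first axis) and Ikzf2-/- 3 (25.8) lie at opposite ends.

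Ikzf2, the targeted gene, read 10.25, 10.38 and 10.38 in WT 4, 5 and 6 and 10.06, 9.14 and 9.22 in Ikzf2-/- 1, 2 and 3. All Ikzf2-/- arrays lay below all WT arrays, but Ikzf2-/- 1 only slightly, and the signal stayed among the brighter ones on the array. The difference of -0.86 (SE 0.24) did not pass limma's threshold (Benjamini-Hochberg adjusted p = 0.548). The sources used here do not say where the probes lie relative to the deleted exons, and probes outside them check nothing, so the signal does not settle the genotype of an array. Ikzf3, encoding Aiolos, read 8.73, 8.70 and 8.88 against 9.18, 8.79 and 9.39, a difference of 0.35 (SE 0.16), with Ikzf2-/- 2 inside the WT range. Ikzf1 (Ikaros) differed by 0.04 (SE 0.12), Ikzf4 (Eos) by 0.14 (SE 0.13) and Ikzf5 (Pegasus) by -0.42 (SE 0.28). The Ikzf5 difference rested on Ikzf2-/- 2, at 6.85 against 7.78 and 7.97 in the other Ikzf2-/- arrays, and was -0.08 without it.

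The genes defining Treg cells were measured at like levels in both groups. Foxp3 read 10.33, 10.50 and 10.43 in WT and 10.58, 10.10 and 10.34 in Ikzf2-/-, a difference of -0.08 (SE 0.14). Ctla4 differed by 0.03 (SE 0.12), Il2ra, the interleukin-2 receptor chain CD25 used for the sort, by -0.23 (SE 0.16), and Tnfrsf18, encoding GITR, by -0.04 (SE 0.24). For each of these genes Ikzf2-/- 1 was the highest of the 6 arrays and Ikzf2-/- 2 the lowest, so the groups overlapped, and Foxp3 and Tnfrsf18 turned positive without Ikzf2-/- 2 (0.04 and 0.26). Across 23 core Treg genes the median difference was -0.07, but against the WT mean the 3 Ikzf2-/- arrays had medians of 0.25, -0.49 and 0.07. The 11 T cell identity genes averaged 10.02 to 10.08 in WT and 9.87 to 10.17 in Ikzf2-/-.

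With the 6 arrays weighted equally, limma called 0 of the 10478 genes (0%) at a Benjamini-Hochberg adjusted p under 0.05. The smallest adjusted p was 0.107, shared by Cd24a and Il10, and 912 genes had an unadjusted p under 0.05, of which 673 were higher and 239 lower in Ikzf2-/-. The groups did not overlap in 1148 genes that were higher (11.0% of those tested) and in 579 that were lower (5.53%). If every order of the 6 arrays were equally likely, the groups would lie apart in a share of 0.1, split evenly between the directions. With array weights limma called 47 genes, 43 higher (0.410%) and 4 lower (0.0382%), and in 40 of the 47 the groups also did not overlap. That fit rests largely on Ikzf2-/- 1 and WT 4 and 5, and Ikzf2-/- 1 is the Ikzf2-/- array with Ikzf2 nearest to WT. The weighted difference of Ikzf2 itself was -0.40 (SE 0.16, limma, adjusted p = 0.259 in the weighted fit). Leaving out 1 array brought the count of the weighted fit to 31, 3 and 11 (WT 4, 5 and 6) and 2, 11 and 2 (Ikzf2-/- 1, 2 and 3). Of these genes, in the same order, 17, 3 and 10 and then 2, 11 and 0 were among the 47. Without weights, leaving out Ikzf2-/- 2 gave 13 called genes, all higher, 12 of which were also called with weights: Il10, Prg2, Ccr2, Cd24a, Ifi30, Ccr3, Cdca8, Car5b, Dusp4, Csf1, Slc43a1 and Myadm. Leaving out Ikzf2-/- 1 gave Stfa3 and Cd24a, leaving out Ikzf2-/- 3 gave Gdpd3 and BC018473, both lower, and leaving out any WT array gave none. A fit over all 15 arrays called 7 genes, Ccr3, Ticrr, Map6 and Prg4 higher and Tbrg3, Thada and Wwp1 lower; its spread comes mostly from groups tighter than Ikzf2-/-. No label says that the arrays came from separate mice, so these p-values measure the spread between arrays, which may be technical. The 12 genes leading in each direction are described next; the higher ones were all called with array weights, and of the lower ones only Plcb4, Wdr66 and Tceanc were.

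**Figure D2:**
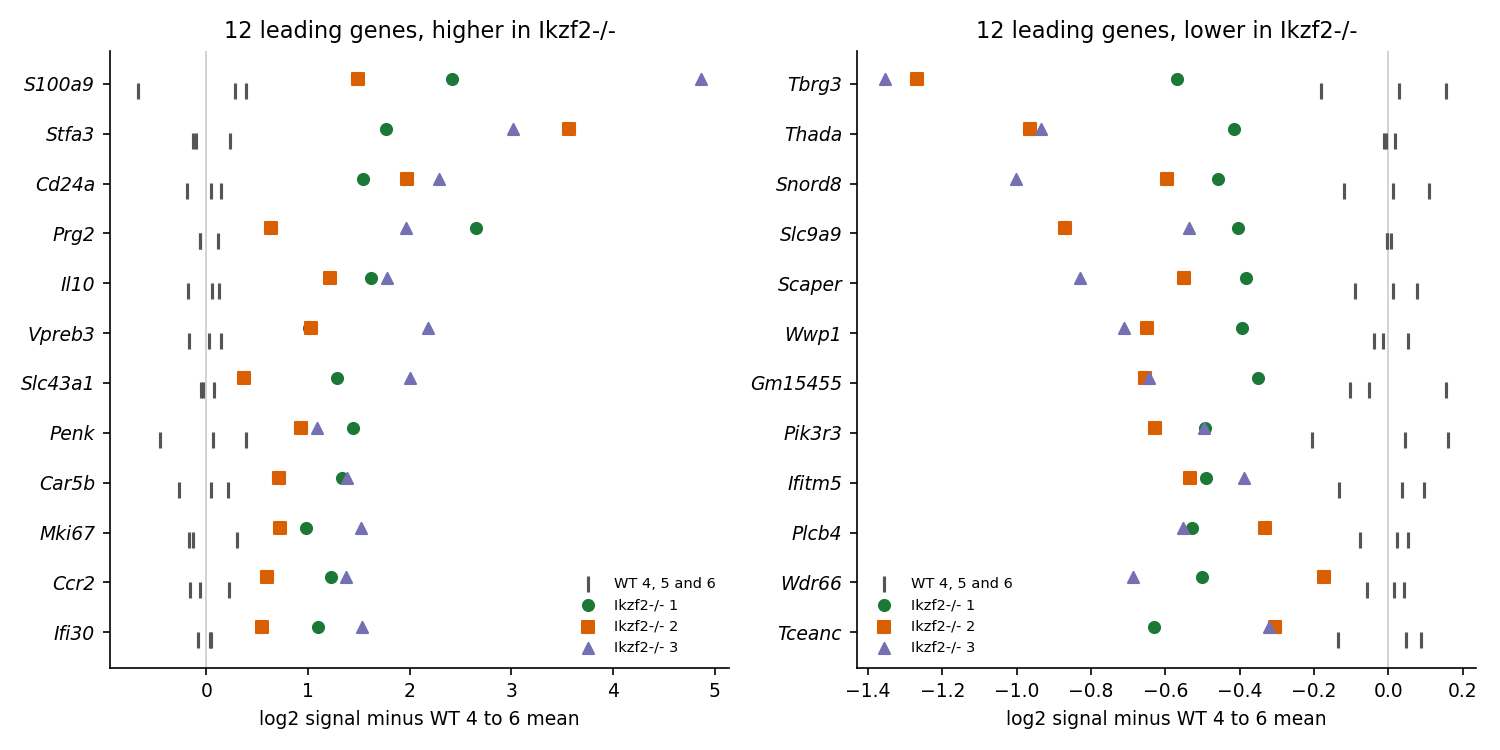
Log2 signal minus the WT 4 to 6 mean for the 12 leading genes in each direction, with a mark for each WT array and a coloured symbol for each Ikzf2-/- array. Every Ikzf2-/- symbol lies outside the WT marks of its gene, and Ikzf2-/- 3 lies far out for S100a9 (12.05 log2 signal) and Slc43a1 (7.37).

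Il10, the gene of the suppressive cytokine interleukin-10, was among the clearest of the higher genes. It read 5.01, 5.08 and 4.77 in WT and 6.57, 6.18 and 6.73 in Ikzf2-/-. The Ikzf2-/- arrays lay close together, all more than 1 log2 unit above the highest WT array, and the difference of 1.54 (SE 0.17) corresponded to 2.91-fold. It had the smallest adjusted p of all genes with array weights (limma, adjusted p = 0.000631), and the difference stayed between 1.42 and 1.70 when any Ikzf2-/- array was left out. Other genes of activated or effector Treg cells differed by less. Fgl2, a secreted suppressive fibrinogen-like protein, read 5.55, 5.17 and 4.79 against 6.67, 5.70 and 6.26 (1.04, SE 0.27). It passed with array weights (limma, adjusted p = 0.0279 in the weighted fit). Lag3, an inhibitory receptor for MHC class II, read 5.90, 6.13 and 6.11 against 6.53, 6.70 and 6.50, without overlap and with little spread, and its difference of 0.53 (SE 0.12) passed neither fit. Klrg1, an inhibitory receptor of differentiated T cells, passed with weights although its groups overlapped, at 8.77, 8.69 and 8.34 against 10.11, 8.30 and 9.43.

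Of the 20 activated or effector Treg genes tested, 16 were higher and 4 lower on average, with a median difference of 0.35 against 0.02 over all genes. None passed the equally weighted fit, 4 passed with array weights (Il10, Fgl2, Ccr2 and Klrg1), beside 0.410% of all genes, and in 5 the groups did not overlap, all of them higher, beside 11.0% of all genes. The arrays disagreed on this list: its median lay 0.54 and 0.73 above the WT mean in Ikzf2-/- 1 and 3, and at -0.31 in Ikzf2-/- 2. Il10, Ccr2, Cxcr3, Fgl2 and Lag3 were above WT in Ikzf2-/- 2 too, while Ccr8, at 7.19, 7.44 and 6.42 in WT, read 7.63, 5.58 and 7.80.

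Among chemokine receptors, Ccr2 and Ccr3 were higher in all 3 Ikzf2-/- arrays. CCR3, the eotaxin receptor, is best known from eosinophils, and CCR2, the receptor for CCL2, guides monocytes and activated T cells into inflamed tissue. Ccr3 read 5.50, 5.77 and 5.56 in WT and 6.78, 6.43 and 6.73 in Ikzf2-/-, and Ccr2 read 7.64, 7.36 and 7.26 and 8.65, 8.02 and 8.80. Neither gene's groups overlapped, and the Ccr3 arrays were about as tight in Ikzf2-/- as in WT. The differences were 1.03 (SE 0.14) for Ccr3 and 1.07 (SE 0.21) for Ccr2, and both passed with array weights (limma, adjusted p = 0.00375 and 0.00777). Cxcr3, the receptor of T helper 1 type Treg cells, read 8.32, 7.97 and 7.67 against 8.44, 8.76 and 8.92, without overlap (0.72, SE 0.19), and did not pass. Gpr15, a colon homing receptor, passed with weights, but Ikzf2-/- 2 at 5.21 lay among the WT arrays, at 5.17, 5.33 and 5.18. Of the 21 chemokine receptor and homing genes tested, 14 were higher on average and 7 lower, and the groups were apart in 3, all higher, a share near the 11.0% of all genes. Ccr7 (-0.20) and S1pr1 (-0.15), which hold T cells in the circulation through lymphoid organs, were not among the 3.

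Signalling genes with a like pattern were named after their values had been seen. Csf1, the macrophage growth factor, read 6.69, 6.59 and 6.48 in WT and 7.45, 6.87 and 7.56 in Ikzf2-/- (0.71, SE 0.19). Tnfsf10, encoding the death ligand TRAIL, read 6.46, 6.51 and 6.18 against 7.36, 6.64 and 7.36, and Dusp4, a phosphatase acting on MAP kinases, 6.46, 6.48 and 6.34 against 7.28, 6.79 and 7.40. In each of the 3 genes the groups did not overlap and Ikzf2-/- 2 was the lowest Ikzf2-/- array. Socs2, a suppressor of cytokine receptor signalling and the 1 core Treg gene called with array weights, read 7.44, 7.20 and 7.18 against 7.91, 7.72 and 8.17 (0.66, SE 0.15). Its weighted difference was 0.63 (SE 0.10, limma, adjusted p = 0.0439 in the weighted fit). Slc43a1, a neutral amino acid transporter, read 5.32, 5.34 and 5.45 against 6.65, 5.74 and 7.37. Its 1.22 (SE 0.36) came with a wide spread among the Ikzf2-/- arrays, whereas Car5b, a mitochondrial carbonic anhydrase, stood at 4.95, 5.11 and 4.62 against 6.23, 5.61 and 6.27 (1.15, SE 0.21). The WT mean of Car5b lay just below the filter, so it was tested only through its Ikzf2-/- mean, as were 6 of the 43 genes called higher with array weights. Penk, the precursor of enkephalin peptides, read 8.89, 8.56 and 8.03 against 9.94, 9.42 and 9.58 (1.15, SE 0.23).

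The sequences before the start sites of Ccr3, Ccr2 and Csf1 are shown because these genes were higher here and also when Ikzf2 loss was added to Eos loss. They are the 250 bases upstream in RefSeq's annotation of GRCm38.p6, at chr9:124021721-124021970 (plus strand), chr9:124101933-124102182 (plus strand) and chr3:107760470-107760719 (minus strand), with each GGGAA, or its reverse complement TTCCC, in capitals.
Ccr3: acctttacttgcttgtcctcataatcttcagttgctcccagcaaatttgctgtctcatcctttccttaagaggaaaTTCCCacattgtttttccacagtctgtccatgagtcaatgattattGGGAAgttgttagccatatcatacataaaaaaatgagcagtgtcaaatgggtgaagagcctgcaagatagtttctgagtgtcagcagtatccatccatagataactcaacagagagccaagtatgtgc
Ccr2: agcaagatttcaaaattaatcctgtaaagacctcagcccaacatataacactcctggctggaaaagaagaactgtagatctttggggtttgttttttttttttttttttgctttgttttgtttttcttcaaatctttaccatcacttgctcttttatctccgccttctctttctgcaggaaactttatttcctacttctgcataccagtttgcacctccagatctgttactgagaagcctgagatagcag
Csf1: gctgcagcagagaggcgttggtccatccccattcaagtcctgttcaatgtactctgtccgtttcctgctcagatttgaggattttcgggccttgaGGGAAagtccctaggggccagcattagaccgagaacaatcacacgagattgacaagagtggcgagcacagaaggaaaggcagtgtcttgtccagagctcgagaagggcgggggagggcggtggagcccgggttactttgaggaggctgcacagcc
The window of Ccr3 holds 2 matches, that of Csf1 holds 1 and that of Ccr2 holds 0. Over the 16 genes called with array weights whose dKO and Ikzf4-/- arrays were also apart in the same direction, 11 had a window, and 7 of their 12 windows (58.3%) held a match. The share was 58.3% over 10612 windows of tested genes and 56.2% over all 32851 windows. A match is common in any window and 12 windows are few, so the count cannot show whether these letters are more or less frequent there.

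Several of the largest differences were in genes best known from granulocytes and B cells. S100a9, a subunit of calprotectin abundant in neutrophils, read 7.46, 6.51 and 7.57 in WT and 9.59, 8.67 and 12.05 in Ikzf2-/-. The groups did not overlap, Ikzf2-/- 3 was far above the rest, and the difference of 2.93 (SE 0.77) was 1.95 without that array. S100a8, the partner subunit, read 7.43, 5.99 and 7.35 against 9.46, 8.91 and 11.99 and did not pass in either fit. Stfa3, a stefin that inhibits cysteine proteases, read 3.77, 3.41 and 3.44 against 5.31, 7.11 and 6.56 (2.79, SE 0.41); it entered the test only through its Ikzf2-/- mean, and close stefin copies may share its probes. Averaged over 14 neutrophil markers, the signal was 4.54 to 4.91 in WT and 5.50, 5.10 and 7.18 in Ikzf2-/-; 8 of the 14 were tested, and Csf3r, Cxcr2, Elane, Ly6g, Mmp8 and Mmp9 lay below the filter. In RNA of a whole sorted fraction, more cells of a type and more RNA per cell cannot be told apart, and the part of neutrophils in these differences was not tested.

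Cd24a, a glycosyl-phosphatidylinositol anchored surface protein of B cell precursors, immature T cells and granulocytes, read 6.72, 6.62 and 6.39 in WT and 8.11, 8.55 and 8.87 in Ikzf2-/-. It was evenly higher in the 3 arrays, by 1.94 (SE 0.20) or 3.83-fold, and passed with array weights (limma, adjusted p = 0.00375). Vpreb3, a pre-B cell receptor associated gene, read 5.10, 4.90 and 5.22 against 6.08, 6.11 and 7.26 (1.41, SE 0.30). Prg2, the major basic protein of eosinophil granules, read 5.00, 5.00 and 5.18 against 7.72, 5.70 and 7.02 (1.75, SE 0.44). Ifi30, a lysosomal thiol reductase of antigen-presenting cells, read 6.25, 6.25 and 6.12 against 7.31, 6.76 and 7.74 (1.06, SE 0.23). In none of these genes did the groups overlap. The 14 B cell markers averaged 5.14 to 5.33 in WT and 5.88, 4.99 and 7.54 in Ikzf2-/-, and Ms4a1, encoding CD20, read 5.18, 5.28 and 5.05 against 6.62, 4.81 and 8.62. Ikzf2-/- 2 had the lowest B cell mean of the 6 arrays, while its neutrophil marker mean, at 5.10, was above the WT arrays, at 4.54 to 4.91. The 8 eosinophil, basophil and mast cell markers averaged 4.16 to 4.28 in WT and 4.60, 4.41 and 4.66 in Ikzf2-/-, with Epx, Fcer1a, Cpa3, Kit and Ms4a2 below the filter and Siglecf at a difference of 0.01 (SE 0.14). Mcpt8, a basophil protease, read 4.52, 4.37 and 4.35 against 4.86, 4.87 and 5.83, higher without overlap, and was tested only through its Ikzf2-/- mean. The part of other cell types in these differences was not tested.

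**Figure D3:**
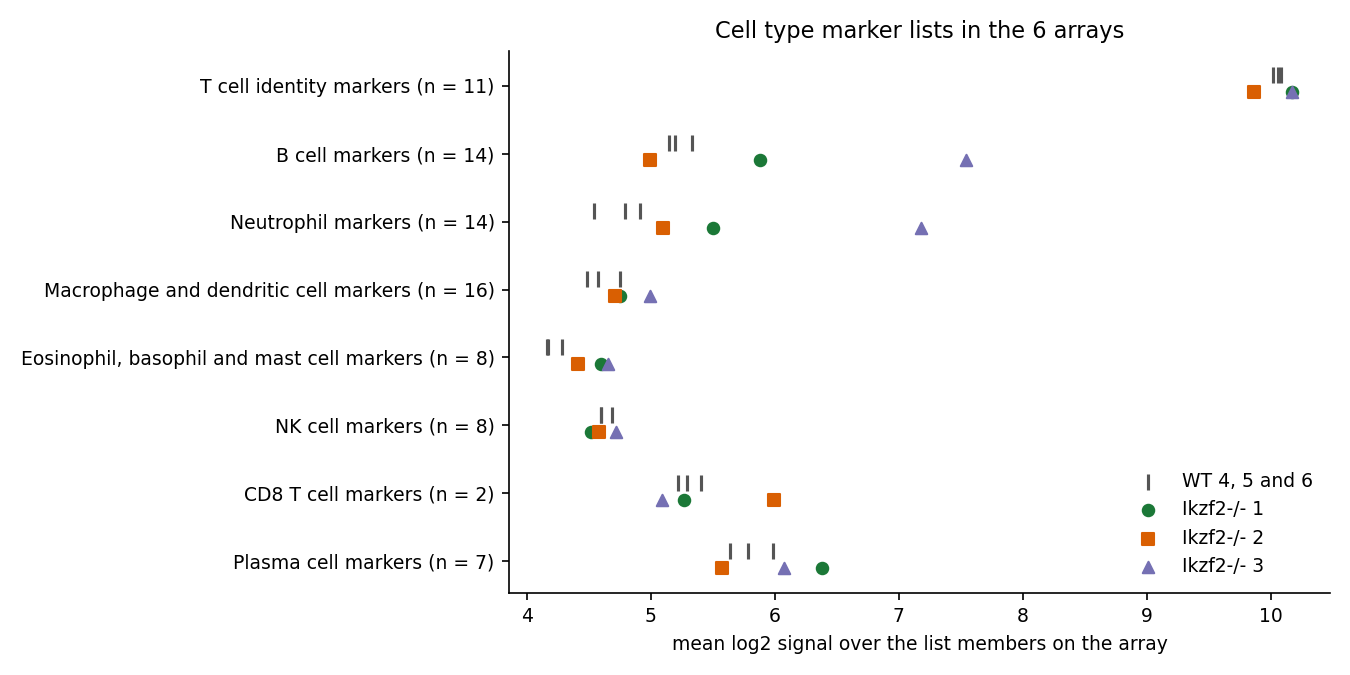
Mean log2 signal over the listed markers of each cell type that are on the array, with a mark for each WT array and a coloured symbol for each Ikzf2-/- array. Ikzf2-/- 3 lies far to the right for B cell (7.54) and neutrophil (7.18) markers, and T cell markers lie near 10 in all arrays.

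Genes of mitosis were higher in Ikzf2-/-, most of all in Ikzf2-/- 3. Mki67, the proliferation marker Ki-67, read 7.60, 7.13 and 7.17 in WT and 8.28, 8.03 and 8.82 in Ikzf2-/-. The groups did not overlap, the difference was 1.08 (SE 0.22), and the gene passed with array weights (limma, adjusted p = 0.0429 in the weighted fit). Cenpe, a kinetochore motor, read 5.16, 5.17 and 5.15 against 5.93, 5.66 and 6.32 (0.81, SE 0.17, called with weights), and Ccna2, cyclin A2, 7.03, 6.74 and 6.70 against 7.75, 7.20 and 8.48 (0.99, SE 0.29, called with weights). Tpx2, a spindle assembly factor, and Aurka, its kinase partner, differed by 0.88 (SE 0.19) and 0.68 (SE 0.15) without overlap and did not pass; Tpx2 was tested only because its Ikzf2-/- mean was above the filter.

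Since 9 of the 31 mitosis genes tested were above the filter only in their Ikzf2-/- mean, the list was counted over all 35 members on the array. All 35 were higher on average, with a median difference of 0.64, and in 16 the groups did not overlap, beside 8.23% of all 19938 genes counted in the same way. Over the genes tested, the median against the WT mean was 0.62, 0.13 and 1.22 in the 3 Ikzf2-/- arrays, and the mean over all 35 listed genes on the array was 5.60, 5.45 and 5.33 in WT and 6.01, 5.63 and 6.69 in Ikzf2-/-. Ikzf2-/- 2 therefore lay barely above WT 4, and the median difference of the tested genes was 0.38 without Ikzf2-/- 3, the array highest in B cell and neutrophil markers. Of the 32 DNA replication genes on the array, 28 were higher, with a median of 0.19, and the groups were apart in 6, beside the same 8.23%. Gins1, of the replicative helicase, read 5.24, 5.16 and 5.04 against 5.79, 5.58 and 5.88 (0.60, SE 0.12) and was called with weights. Ticrr, a regulator of replication initiation, read 5.17, 5.00 and 4.91 against 5.57, 5.94 and 5.85 (0.76, SE 0.14), and Ccne2, cyclin E2, 5.06, 4.77 and 4.86 against 5.27, 5.67 and 5.50 (0.59, SE 0.14). In these 3 replication genes the groups did not overlap, and Ikzf2-/- 2 lay with or near the other Ikzf2-/- arrays; Ccne2 was tested only through its Ikzf2-/- mean. Whether other cell types carried the cell cycle signal was not tested.

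The mitochondrial lists had small medians that were positive in all 3 arrays, though single genes were mixed. Of 37 genes of the respiratory chain and ATP synthase, 31 were higher, the median difference was 0.22, and the groups did not overlap in 17, beside 11.0% of all genes higher without overlap. The medians of Ikzf2-/- 1, 2 and 3 against the WT mean were 0.15, 0.26 and 0.32, so here the median of Ikzf2-/- 2 went with the others. Cox4i1, a cytochrome c oxidase subunit, was an exception among its members, at 10.06, 9.87 and 9.98 in WT and 10.31, 8.64 and 10.47 in Ikzf2-/-. Ndufb10, a complex I subunit, read 8.87, 8.92 and 8.68 in WT and 9.22, 9.57 and 9.25 in Ikzf2-/- (0.52, SE 0.14). Uqcrfs1, the Rieske protein of complex III, read 7.63, 7.63 and 7.77 against 7.96, 8.30 and 8.09 (0.43, SE 0.12). Of 38 mitochondrial ribosome genes 33 were higher, with a median of 0.15 and 10 apart. Mrps30 read 6.17, 6.14 and 6.14 against 6.48, 6.73 and 6.66 (0.48, SE 0.11). None of these genes passed in either fit. The 13 glycolysis genes had a median of 0.08, with Pgk1, phosphoglycerate kinase, at 0.36 (SE 0.11) and apart, and the 25 cytosolic ribosome genes had a median of 0.01.

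**Figure D4:**
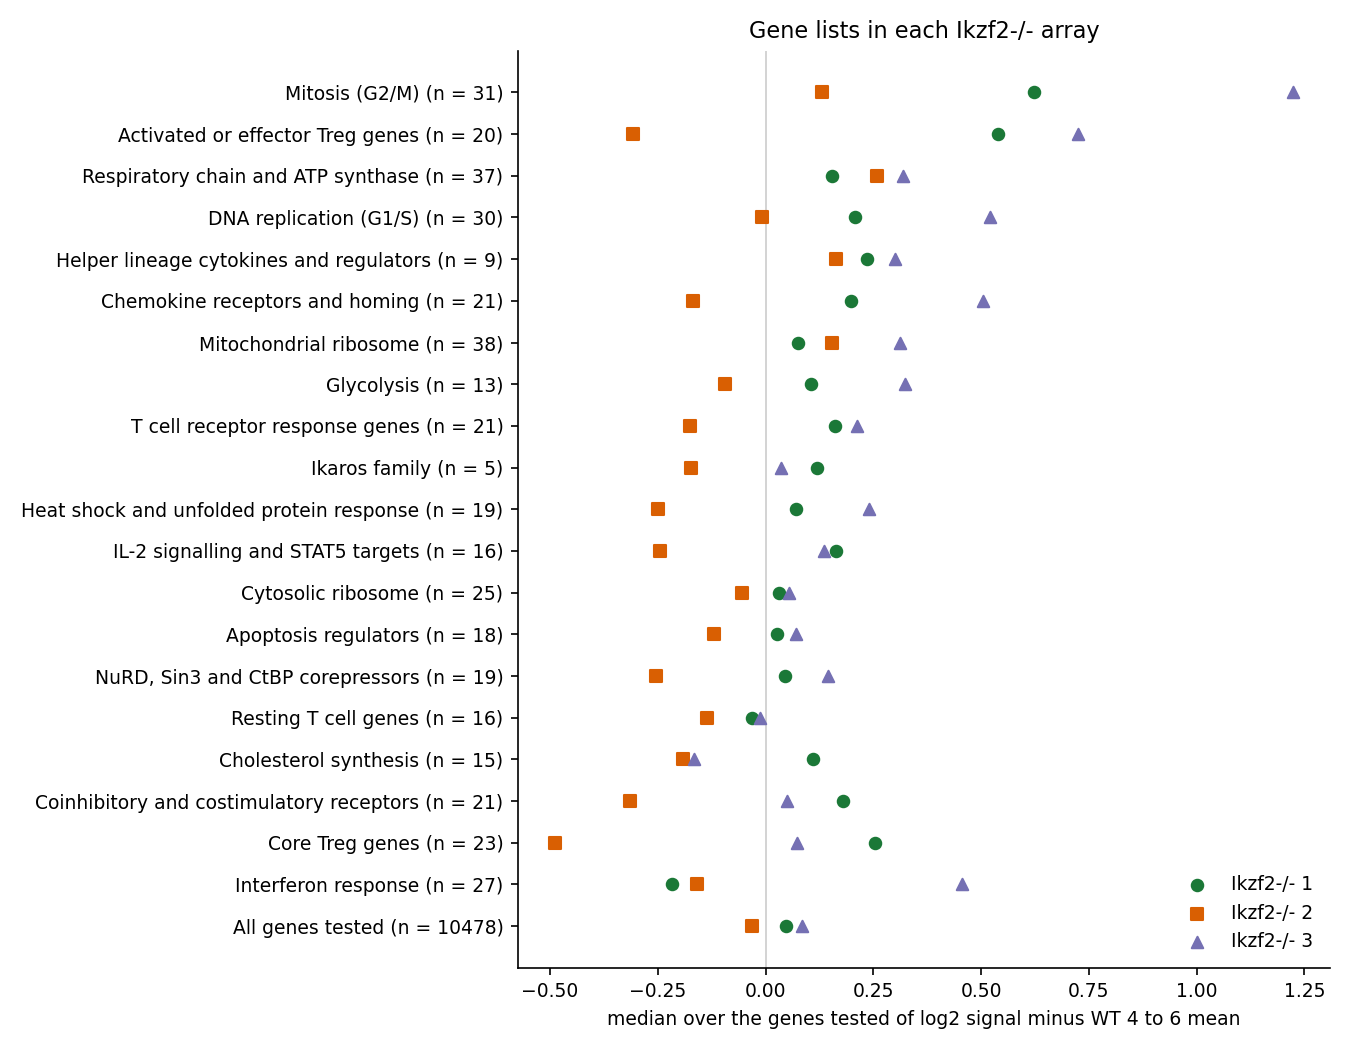
Median over the tested genes of each list of the log2 signal minus the WT 4 to 6 mean, with a symbol for each Ikzf2-/- array. Mitosis genes reach 1.22 in Ikzf2-/- 3 but 0.13 in Ikzf2-/- 2, while respiratory chain genes lie between 0.15 and 0.32 in all 3.

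The 12 genes leading in the lower direction include 9 taken by smallest p, since only 3 of the calls with array weights qualified, so their sizes are not set against those of the higher genes. Tbrg3 read 8.16, 8.37 and 8.49 in WT and 7.77, 7.07 and 6.98 in Ikzf2-/-, a difference of -1.06 (SE 0.22) and the largest of the 12. Thada read 7.58, 7.56 and 7.55 against 7.15, 6.60 and 6.63 (-0.77, SE 0.16), and Wwp1, a ubiquitin ligase of the NEDD4 family, 7.54, 7.60 and 7.51 against 7.16, 6.90 and 6.84 (-0.58, SE 0.12). In these 3 genes Ikzf2-/- 1 lay between the WT arrays and the other Ikzf2-/- arrays. Plcb4, a phospholipase C that cleaves membrane phosphoinositides, read 6.80, 6.82 and 6.69 against 6.24, 6.44 and 6.22 and was called with array weights (-0.47, SE 0.11). Also called with weights were Wdr66 (-0.45, SE 0.15), a WD repeat protein of cilia and flagella, Tceanc (-0.42, SE 0.13) and the predicted gene Gm10825 (-1.43, SE 0.57), whose groups overlapped. Pik3r3, a regulatory subunit of phosphoinositide 3-kinase, read 5.85, 5.48 and 5.73 against 5.19, 5.06 and 5.19 (-0.54, SE 0.13). Slc9a9 (an endosomal proton exchanger), Snord8 (a small nucleolar RNA), Scaper, Ifitm5 and Gm15455 differed by -0.47 to -0.68, without overlap and without passing either fit.

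Receptors and transcription factors of resting T cells were mixed. Satb1, a chromatin organiser that Treg cells hold low, read 9.73, 9.96 and 10.05 in WT and 9.60, 9.56 and 9.55 in Ikzf2-/- (-0.34, SE 0.12), and Foxp1 differed by -0.23 (SE 0.12), both without overlap. Cd55, the complement decay accelerating factor, read 6.68, 6.47 and 6.43 against 6.92, 7.28 and 7.38 (0.67, SE 0.15). Of the 16 resting T cell genes tested, 7 were higher and 9 lower, and the groups were apart in 3 higher and 2 lower genes, beside 11.0% and 5.53% of all genes. Among 21 coinhibitory and costimulatory receptors, 7 were higher and 14 lower. Cd160, a receptor for HVEM, read 5.38, 5.69 and 5.66 against 5.08, 5.23 and 4.79 (-0.55, SE 0.15), Cd27 differed by -0.24 (SE 0.12) and Slamf6 by 0.18 (SE 0.11), each apart and none passing.

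Of the 18 helper cytokine and regulator genes on the array, 9 were above the filter, and none of these 9 had groups apart. Over all 18 the groups were apart in 1 gene, beside 8.23% of all genes higher without overlap when no filter was used. This gene was Il2, which read 4.12, 4.18 and 4.11 against 4.42, 4.69 and 4.63, all below the filter. Tnf, the brightest cytokine gene of the list, read 8.06, 8.09 and 7.39 against 8.34, 7.71 and 8.15. Ifng, encoding interferon gamma, read 5.00, 5.26 and 4.70 against 5.67, 5.17 and 5.42 (0.44, SE 0.18), and Tbx21, encoding T-bet, differed by 0.30 (SE 0.13). The 27 interferon response genes had medians of -0.22, -0.16 and 0.46 in Ikzf2-/- 1, 2 and 3, so these arrays did not go together, although Oasl2 was apart at 4.78, 4.55 and 4.95 against 5.15, 5.52 and 5.50 (0.63, SE 0.16). Medians lay within 0.10 of 0 for interleukin-2 signalling (16 genes, 0.02), T cell receptor response (21 genes, 0.05), apoptosis (18 genes, -0.02), heat shock and unfolded protein response (19 genes, 0.03), cholesterol synthesis (15 genes, -0.03) and the NuRD, Sin3 and CtBP corepressors (19 genes, -0.02). Over these 6 lists the groups were apart higher in 2, 1, 1, 0, 0 and 3 genes and lower in 0, 0, 1, 0, 0 and 0, shares near or below the 11.0% and 5.53% of all genes.

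The same genes were then looked up where Ikzf2 was lost on top of Ikzf4, in dKO minus Ikzf4-/-. That comparison shares no array with the first, but its arrays lack Eos on both sides and were normalized apart, so levels are compared only within a set. Ikzf2 itself read 10.1, 10.2 and 10.6 in dKO and 10.5, 10.7 and 10.8 in Ikzf4-/-, and the groups overlapped. Its difference was -0.38 (SE 0.15, limma, adjusted p = 0.879), and here too the signal does not settle the genotype of an array. There limma called 1 gene (0.00954%), Acadl, and 524 genes had an unadjusted p under 0.05. With the replicate number as a block 2 genes passed, Acadl and Car5b, and with any 1 array left out 0 did. The groups did not overlap in 430 genes that were higher (4.10%) and 437 that were lower (4.17%). Both directions together stand beside the share of 0.1 that equally likely orders would give. Xist in these arrays was 10.11, 7.25 and 4.17 in dKO and 9.98, 10.23 and 4.11 in Ikzf4-/-, so both groups hold arrays with high and with low Xist, and 1 dKO array lies between; the part of this in the values was not tested.

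All 12 leading higher genes had a positive difference there, with a median of 0.91, and 11 of the 12 leading lower genes a negative one, with a median of -0.10, while 49.2% of all genes tested were positive. Ccr2 was 8.0, 8.58 and 8.38 in dKO and 6.79, 6.79 and 7.22 in Ikzf4-/- (1.39, SE 0.18), and Ccr3 was 6.71, 7.05 and 6.34 against 5.70, 5.38 and 5.65 (1.12, SE 0.18). Csf1 was 7.49, 7.43 and 7.77 against 6.42, 6.69 and 6.33 (1.08, SE 0.13), beside 0.71 (SE 0.19) in the first comparison. Slc43a1 (1.03, SE 0.13), Car5b (1.25, SE 0.38), Tnfsf10 (0.80, SE 0.18) and S100a9 (1.75, SE 0.64) were also apart. Cd24a (0.07, SE 0.33), Vpreb3 (0.06, SE 0.13), Ifi30 (0.09, SE 0.07) and Prg2 (0.18, SE 0.14) were near 0 there, and their groups overlapped. Il10 was 6.48, 7.62 and 6.19 in dKO against 4.85, 7.15 and 5.40 in Ikzf4-/-, higher in dKO within each replicate number although the groups overlapped. Its difference of 0.96 had an SE of 0.64, or 0.23 with the replicate number as a block (limma, adjusted p = 0.444).

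Of the 43 genes called higher with array weights, 38 (88.4%) were positive in dKO minus Ikzf4-/-, beside 49.2% of all genes, and 15 (34.9%) were also apart there, beside 4.10%. Of the genes with groups apart in each comparison, 92 were higher in both, which is 8.01% of the 1148 and 21.4% of the 430, and 53 were lower in both, 9.15% of the 579 and 12.1% of the 437; over all genes the shares apart in dKO minus Ikzf4-/- were 4.10% and 4.17%. Among the lower genes, Plcb4 (-0.29, SE 0.08), Wwp1 (-0.33, SE 0.06), Scaper (-0.23, SE 0.06) and Pik3r3 (-0.29, SE 0.10) were apart in dKO minus Ikzf4-/-, whereas Tbrg3 (-0.06, SE 0.10) and Thada (-0.06, SE 0.08) were not. By list, the median in dKO minus Ikzf4-/- was 0.42 for activated or effector Treg genes (18 of 20 positive, 7 apart), 0.50 for mitosis (30 of 31 positive, 1 apart), 0.19 for DNA replication, 0.03 for the respiratory chain and 0.01 for the mitochondrial ribosome. B cell markers had a median of -0.03 there, with 5 of 14 positive and 1 apart higher. Neutrophil markers had a median of 0.13, with 8 of 8 positive and 3 apart higher.

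**Figure D5:**
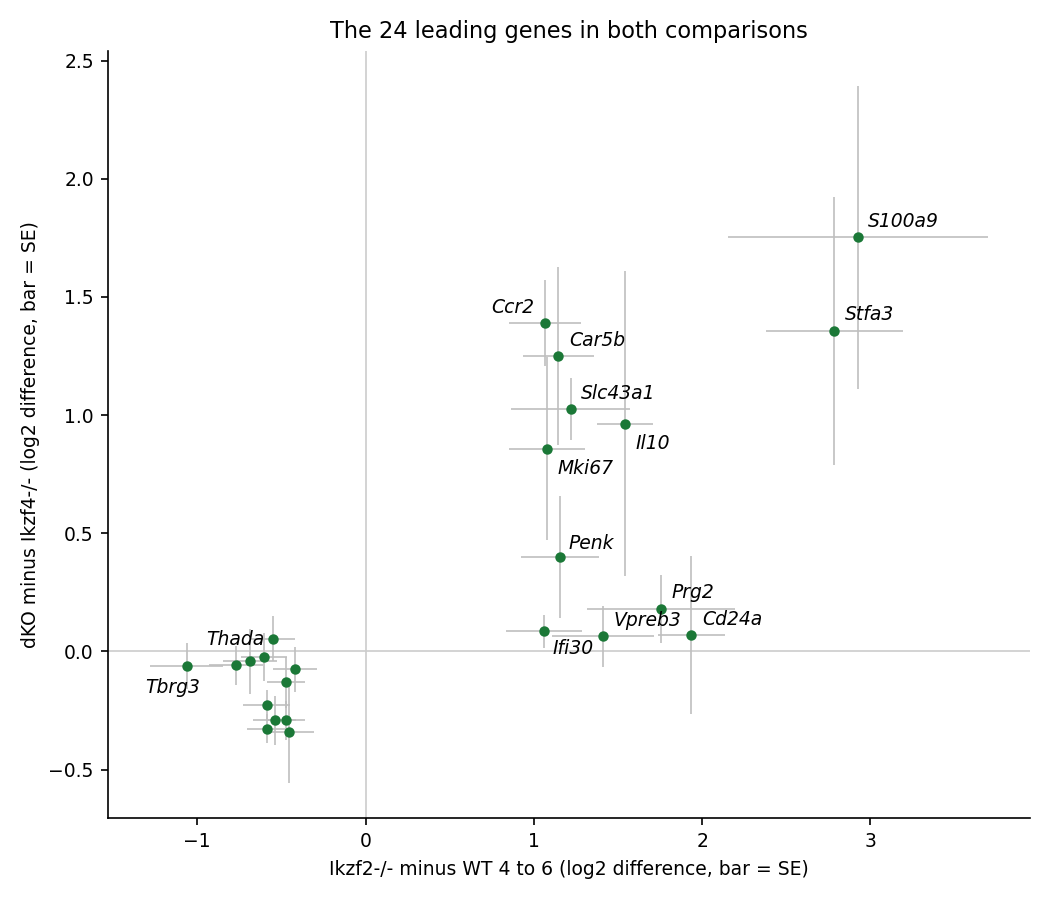
Log2 difference of the 24 leading genes in Ikzf2-/- minus WT (horizontal) and in dKO minus Ikzf4-/- (vertical), with bars of 1 SE. S100a9, Stfa3, Ccr2, Car5b and Slc43a1 lie above 1 on both axes, and Cd24a, Vpreb3, Ifi30 and Prg2 lie within 0.18 of 0 on the vertical axis.

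Whether the effect of Ikzf2 loss differed between the comparisons was tested as an interaction over 12 arrays, and limma called 0 genes (0%; 581 with an unadjusted p under 0.05, smallest adjusted p 0.853). The estimated difference between the effects was 1.87 (SE 0.41) for Cd24a, 1.35 (SE 0.36) for Vpreb3, 0.97 (SE 0.26) for Ifi30 and 1.57 (SE 0.52) for Prg2, and -0.32 (SE 0.30) for Ccr2 and -0.09 (SE 0.24) for Ccr3. With array weights 3 genes passed: Prg2 (2.29, SE 0.28, limma, adjusted p = 0.0156), Ifi30 (1.05, SE 0.14, adjusted p = 0.0199) and Acadl (1.95, SE 0.22, adjusted p = 0.0121). Acadl, a mitochondrial acyl-CoA dehydrogenase gene near Ikzf2 on its chromosome, read 5.78, 5.83 and 5.32 in WT and 6.02, 5.33 and 6.77 in Ikzf2-/- (0.40, SE 0.34), but 5.62, 5.80 and 5.67 in dKO against 7.25, 7.46 and 7.09 in Ikzf4-/-. The presence of Eos and the set of arrays differ together between these comparisons and cannot be told apart.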

How the data were processed

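RNA of sorted splenic CD4+CD25+ cells was measured on single-colour arrays from 15 ng of total RNA, amplified with a NuGEN kit per the labels' protocols. Each array has a deposited log2 signal for each probe set, computed by the authors with Affymetrix Expression Console 1.3.1 and RMA per the submitters' processing notes; RMA compresses differences of dim genes. WT 4 to 6 are taken as the controls of Ikzf2-/- from the numbering: the number of probe sets with exactly equal values averaged 34.4 for pairs within these 6 arrays, 2286 within the other 9 and 0.0741 across. Of 35556 probe sets, 21789 had 1 symbol in the platform annotation, 1621 several and 12146 were unlisted here; 21698 were updated through Entrez identifiers. For 999 genes with several probe sets the brightest was kept, and 9460 genes were below the filter (both group means at or under log2 4.92). Depth does not apply to arrays; their number limits the precision.

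The 6 arrays were fitted with limma 3.58.1 in R 4.3.3 (lmFit and eBayes), Benjamini-Hochberg over all 10478 genes at 0.05. The procedure was run on simulated data with noise drawn independently for each gene and array. Such data cannot show the rate of false calls where many genes move together in an array. The dKO minus Ikzf4-/- fit and the interaction used the same genes. The titles do not say whether equal replicate numbers of dKO and Ikzf4-/- pair the arrays. Deviations from the group means correlated at 0.381, 0.212 and 0.223 for numbers 1, 2 and 3. Arrays of unlike number were not correlated for comparison, so the replicate block assumes a pairing. Alternatives were another filter, scaling, weights, all 15 arrays, the mean of probe sets and leaving out arrays. The members and the 31 lists were chosen with earlier results of these data known. Named by rule were the Ikaros family, Foxp3, Il2ra, Ctla4 and Tnfrsf18, then the 12 leading genes per direction, called with array weights and with groups apart, by size, or else with the smallest p and groups apart, up to 4 genes per list with the smallest p (for markers, the brightest), 7 genes called in an earlier fit (Ccr3, Ticrr, Map6, Prg4, Tbrg3, Thada and Wwp1), 6 genes of widest spread and the neighbours of Ikzf2; other genes were named after their values were seen. Promoter windows are RefSeq's, matched by symbol.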

Additional observations from a re-analysis of the deposited data

How the results depend on the processing

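The count of 0 genes called in either direction held with no filter, a stricter filter, equal array medians, a second quantile normalization, an intensity trend and the mean of probe sets. Array weights gave 43 higher and 4 lower, and a fit of all 15 arrays, whose shared spread is below that of the Ikzf2-/- arrays, 4 (Ccr3, Ticrr, Map6 and Prg4) and 3 (Tbrg3, Thada and Wwp1). Leaving out an array gave 0 to 13 higher and 0 to 2 lower; with weights, an addition made after seeing the data, it gave 30, 3 and 10 higher and 1, 0 and 1 lower without WT 4, 5 and 6, and 2, 11 and 0 higher and 0, 0 and 2 lower without Ikzf2-/- 1, 2 and 3. Genes with groups apart numbered 743 higher and 278 lower of 5288 with the stricter filter, and 1641 higher and 947 lower of 19938 with none. At equal medians they were 1425 higher and 337 lower of 10478, where 65.3% of all genes were above 0 against 54.6%. Without an array they were 1375 to 2867 higher and 815 to 1293 lower. Groups of 2 and 3 arrays lie apart more easily than 3 and 3, so these counts are not comparable with the others. The interaction gave 3 genes with array weights and 0 to 3 without an array: Ifi30, Prg2 and Acadl without Ikzf2-/- 2, and BC018473 without Ikzf2-/- 3. No replicate block was possible for Ikzf2-/- against WT 4 to 6, whose numbers differ; dKO minus Ikzf4-/- with the replicate block gave 2 genes, Acadl and Car5b, and without any of its arrays 0. Between 11 and 12 leading higher and 8 and 12 leading lower genes kept their sign there without an array.

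Of the 93 genes named with values here, 17 changed sign somewhere (other list members were not followed): Foxp3 (0.12), Il2ra (0.0034), Tnfrsf18 (0.24), Atic (0.0014), Ccr8 (0.39), S1pr1 (0.075) and Cox4i1 (0.28) with array weights, and Tnfrsf18 (0.011), Lancl1 (0.048) and Ccr8 (0.033) at equal medians. Leaving out an array gave ranges of -0.20 to 0.040 for Foxp3, -0.22 to 0.26 for Tnfrsf18, -0.052 to 0.11 for Ctla4, -0.026 to 0.15 for Ikzf1, -0.054 to 0.046 for Lancl1, -0.39 to 0.51 for Jchain, -0.0035 to 1.69 for Cd79a, -0.22 to 1.38 for Rln3, -1.22 to 0.63 for Gm4956, -0.50 to 0.13 for Atic, -0.41 to 0.69 for Ccr8, -0.26 to 0.0061 for S1pr1, -0.079 to 0.10 for Siglecf, -0.0085 to 0.40 for Tnf, -0.50 to 0.41 for Cox4i1 and -0.46 to 1.32 for H2bc14; the causes were not tested. Signal near background limits the dim genes.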

Other observations

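A few genes differed between the Ikzf2-/- arrays far more than between the WT arrays: the range among Ikzf2-/- 1 to 3 was over 2 log2 units in 75 genes, against 4 among WT 4 to 6. Gdpd3, a lysophospholipase D gene, read 9.45, 9.64 and 9.53 in WT but 4.74, 5.00 and 9.93 in Ikzf2-/- 1, 2 and 3. BC018473 followed the same arrays, with 7.49, 7.47 and 7.62 in WT and 4.31, 4.60 and 8.90 in Ikzf2-/-. Both genes were thus far lower in Ikzf2-/- 1 and 2 and at or above the WT level in Ikzf2-/- 3, so their mean differences of -2.98 (SE 1.22) and -1.59 (SE 1.08) describe no array. Gm4956 was lower in Ikzf2-/- 1 and 2 and higher in Ikzf2-/- 3, at 6.93, 6.58 and 7.16 against 5.37, 5.97 and 9.08. Chil3, a chitinase-like protein of myeloid cells, read 4.34, 4.05 and 3.97 against 4.94, 3.99 and 8.42, and Scd1, a fatty acid desaturase, 4.72, 5.04 and 4.56 against 5.87, 4.70 and 8.34, so both were far higher in Ikzf2-/- 3 than in any other array and lay above WT in Ikzf2-/- 1 too. The histone gene H2bc14 read 8.50, 8.48 and 7.96 against 9.13, 6.58 and 10.13.

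Of the 10 genes next to Ikzf2 on its chromosome, 5 on each side, 4 passed the filter on signal. Lancl1 read 6.78, 6.90 and 6.73 in WT and 6.73, 6.77 and 6.90 in Ikzf2-/-, and its groups overlapped. Bard1, a partner of BRCA1, differed by 0.09 (SE 0.10) and Atic, a purine synthesis enzyme, by -0.27 (SE 0.31), the latter through Ikzf2-/- 2, at 7.59 against 8.71 and 8.85. In dKO minus Ikzf4-/- Lancl1 was lower by 0.64 on the log2 scale (-0.64, SE 0.12), with groups apart. Acadl, near Ikzf2 too and described above, was lower there by more (-1.57, SE 0.08 with the replicate number as a block).

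Plasma cell markers averaged 5.64 to 5.99 in WT and 6.38, 5.57 and 6.07 in Ikzf2-/-. Their brightest member, Jchain, read 8.97, 8.66 and 8.50 against 10.05, 8.39 and 8.26 and was highest in Ikzf2-/- 1. Macrophage and dendritic cell markers averaged 4.48 to 4.75 in WT and 4.75, 4.71 and 4.99 in Ikzf2-/-, with Lyz2, which neutrophils also express, at 6.87, 6.40 and 7.69 against 8.33, 7.34 and 9.86. NK cell markers averaged 4.60 to 4.69 against 4.52, 4.58 and 4.72, erythroid markers 4.53 to 4.58 against 4.46, 4.62 and 4.70, and platelet markers 4.53 to 4.65 against 4.56, 4.51 and 4.49.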
